A study of Mus musculus with 12 samples.

Results

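Regulatory T cells and the costimulatory receptors they share with activated T cells were followed through 8 genes, selected by symbol: Foxp3, Il2ra, Ikzf2, Ccr8, Tnfrsf18, Tnfrsf4, Tnfrsf9 and Icos. Each of the 8 had 1 row among the 23282 rows of the count table. The counts came from 12 tumors of MC38, a mouse colon carcinoma line, which grew subcutaneously on the right flank of WT female C57BL/6 mice, 6 weeks old at the start, until day 19. SFIH mice received a sesquiterpene lactone-rich fraction of the plant Inula helenium by daily intraperitoneal injection at 50 mg/kg. The paper also lists IgG2a for this group. Con mice received IgG2a and saline with DMSO and Tween, the solvent of that fraction. PD mice received 200 μg of an antibody against PD-1 in 2 injections a week. Comb mice received this antibody and the fraction. Each group had 3 tumors, and since nothing in the labels says that they came from separate animals, the p-values measure only the spread between these samples. RNA was taken from whole tumor tissue, so host T cells, myeloid cells and surrounding tissue contribute to every value although the labels speak of tumor cells. In such bulk RNA, fewer cells of a type and less RNA per cell cannot be told apart.

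As background, regulatory T cells restrain other lymphocytes, and they accumulate in many tumors. Foxp3 encodes their lineage-defining transcription factor, Ikzf2 encodes Helios, a zinc finger factor found in many of them, and Il2ra encodes CD25, the subunit that gives the interleukin 2 receptor its high affinity. Ccr8 encodes a chemokine receptor of tumor-resident regulatory T cells. Icos (inducible costimulator, of the CD28 family), Tnfrsf4 (OX40), Tnfrsf18 (GITR) and Tnfrsf9 (CD137) encode costimulatory receptors that activated effector T cells also display, and PD-1 blockade releases effector T cells from inhibition. Most of these genes are therefore not markers of regulatory T cells alone.

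Total counts were between 7870741 and 12261032 per tumor. Comb replicate 3 stood apart from the other libraries. The summed level of 9 skeletal muscle genes was 5843 CPM (counts scaled to a library of 10 to the power of 6 counts) in it, 878 CPM in Comb replicate 1 and between 12.2 and 177 CPM in the remaining 10 tumors. The 6 mast cell genes of the list summed to 1026 CPM in Comb replicate 3 and to between 15.8 and 196 CPM in the other 11 tumors. The 3 Cd3 genes, which encode chains of the T cell receptor complex, summed to 163 CPM in Comb replicate 3, to 54.3 CPM in Comb replicate 2 and to 16.6 CPM in Comb replicate 1, against 11.9 to 17.5 CPM in Con, 11.7 to 21.1 CPM in SFIH and 17.7 to 42.8 CPM in PD. The 8 epithelial carcinoma genes of the list, Epcam and Krt8 among them, reached only 6.97 to 9.22 CPM in Con, where 6 macrophage and leukocyte genes reached 239 to 462 CPM.

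Across the 8 comparisons of the design, no member had an adjusted p below 0.05 in the quasi-likelihood test of edgeR, and neither did any other gene (0% of 13464). In the comparison of all 6 tumors given anti-PD-1 with the 6 not given it, averaged over SFIH, 5 of the 7 members tested were higher at an unadjusted p below 0.05 (Icos, Tnfrsf4, Tnfrsf18, Il2ra and Ikzf2), against 13.4% of all genes. Tnfrsf9 was lower at that level, as were 5.32% of genes. Between PD and Con, Icos and Tnfrsf4 were higher at an unadjusted p below 0.05, against 2.31% of genes. The comparisons of SFIH, PD and Comb with Con share the same 3 Con tumors. Between Comb and Con, Icos, Tnfrsf4 and Tnfrsf18 were higher, against 18.0% of genes, and Tnfrsf9 was lower, against 7.30% of genes. Between Comb and SFIH the same 3 members were higher, against 14.8% of genes, and Tnfrsf9 was lower, against 4.22%. No member reached an unadjusted p of 0.05 between SFIH and Con (2.25% of genes in either direction), between Comb and PD (18.0%), in the comparison of the 6 tumors given SFIH with the 6 not given it (14.5%) or in the interaction of the treatments (2.55%).

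**Figure D1:**
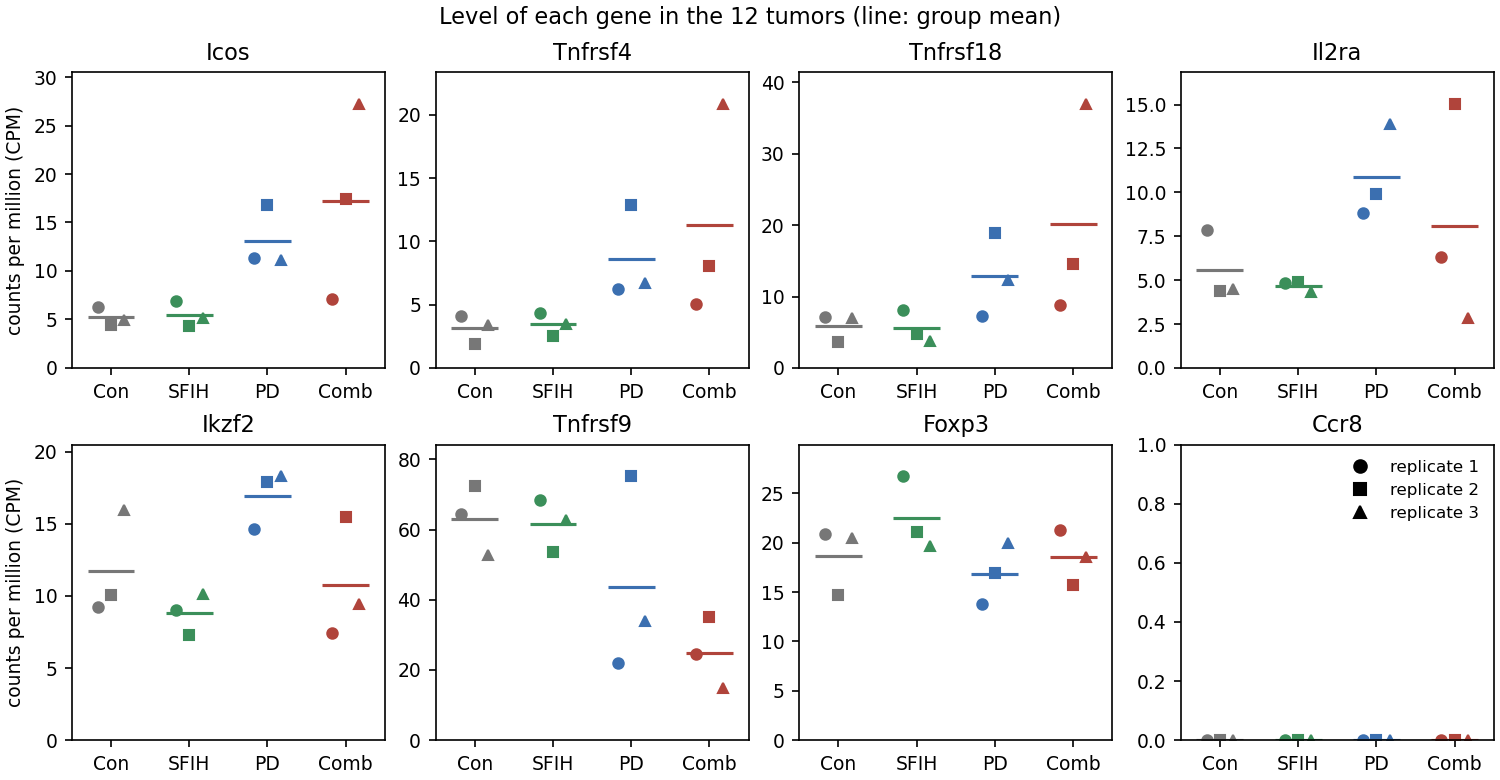
Level of each of the 8 genes in the 12 tumors in CPM on linear axes that start at 0, with a symbol for each replicate and a line at the group mean. Icos and Tnfrsf4 were higher in all 6 tumors given anti-PD-1 than in the 6 not given it, Tnfrsf9 was lower in 5 of the 6 treated tumors than in all untreated ones, and Ccr8 was at 0 throughout.

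DESeq2 gave more calls. It called Icos, Tnfrsf4 and Tnfrsf18 higher at an adjusted p below 0.05 between Comb and Con, where it called 11.7% of genes higher, and between Comb and SFIH, where it called 7.36% higher. It called these 3 and Il2ra higher with anti-PD-1, where 7.30% of genes were called higher. The edgeR result depended on Comb replicate 1, the Comb tumor with the least Cd3: without it, edgeR called 4 members higher with anti-PD-1 (Icos, Tnfrsf4, Tnfrsf18 and Ikzf2) beside 11.9% of all genes. It then also called Icos, Tnfrsf4 and Tnfrsf18 higher between Comb and Con, beside 18.4% of genes, and between Comb and SFIH, beside 15.5%. Without Comb replicate 3, edgeR called 0 members in any of the comparisons, and the smallest adjusted p of a member was 0.0666 (Icos, with anti-PD-1). The share of all genes that edgeR called without that tumor is not given here. DESeq2 without that tumor, a setting chosen after seeing the data, called Icos between Comb and Con, beside 3.93% of genes, and Icos, Tnfrsf4, Tnfrsf18 and Il2ra with anti-PD-1, beside 5.10%. It no longer called any member between Comb and SFIH.

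Foxp3 lies on chromosome X at positions 7573644 to 7595245 of GRCm38 (GENCODE M21), on the plus strand. Its row held 229, 141 and 205 counts (Con), 328, 256 and 192 (SFIH), 128, 133 and 191 (PD) and 215, 155 and 204 (Comb). The groups overlapped, and the log2 fold change with anti-PD-1 was −0.02 ± 0.16 (SE, adjusted p = 0.958, edgeR). How many of these counts came from Foxp3 transcripts cannot be told from the table. Its convergent neighbour Ccdc22 on the minus strand, a gene expressed in most tissues, held 227, 140 and 203 counts (Con), 322, 254 and 191 (SFIH), 125, 122 and 184 (PD) and 214, 148 and 192 (Comb). In every tumor the Foxp3 row exceeded the Ccdc22 row by 12 counts or fewer. Ccdc22 was singled out after its values were seen.

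Exons of the 2 genes share 590 bases between positions 7593809 and 7595055 in that annotation. The last 4 exons of the Ccdc22 transcript fall inside the last exon of Foxp3, which is 2346 bases long, so the 3′ end of Ccdc22, the kind of place a 3′ library reads, lies within Foxp3. The sources used here do not say whether reads were counted by strand or how reads in shared exons were assigned. Among 821 pairs of genes on opposite strands that share exon bases and have mean counts of at least 50, 21 pairs (2.56%) had counts within 10% of each other in all 12 tumors. The same was true of 2 of 2322 pairs (0.0861%) on opposite strands that stand next to each other in the table without shared exon bases.

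**Figure D2:**
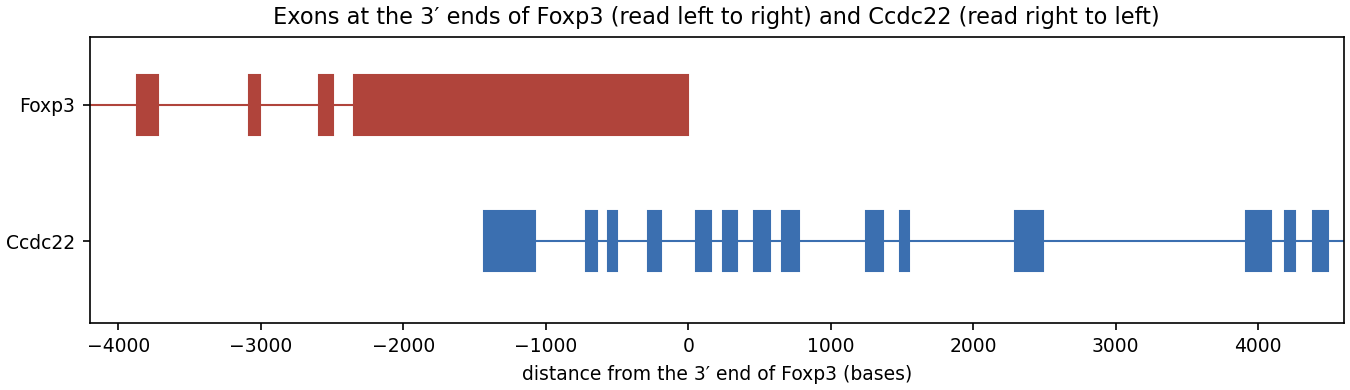
Exons at the 3′ ends of Foxp3 and Ccdc22 by distance in bases from the end of Foxp3, drawn to scale from the longest coding transcript of each gene. The last exon of Foxp3, 2346 bases long, spans the last exon of Ccdc22, 359 bases long, and 3 more of its exons.

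Counts of the Foxp3 row beyond the Ccdc22 row were 2, 1 and 2 (Con), 6, 2 and 1 (SFIH), 3, 11 and 7 (PD) and 1, 7 and 12 (Comb). They made up 55 of 2377 counts in all, between 0.465% and 8.27% of the row in a tumor. All 3 Con tumors and 3 other tumors lay below the limit of 3 counts that a count of 0 allows at this depth, and PD replicate 1 lay at it. The 3 PD tumors lay above the 3 Con tumors, and Comb replicate 1 lay with Con. No fold change is given from numbers this small. The share of Foxp3 transcripts in either row was not tested, and every value of the Foxp3 row below is a value of that row only.

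**Figure D3:**
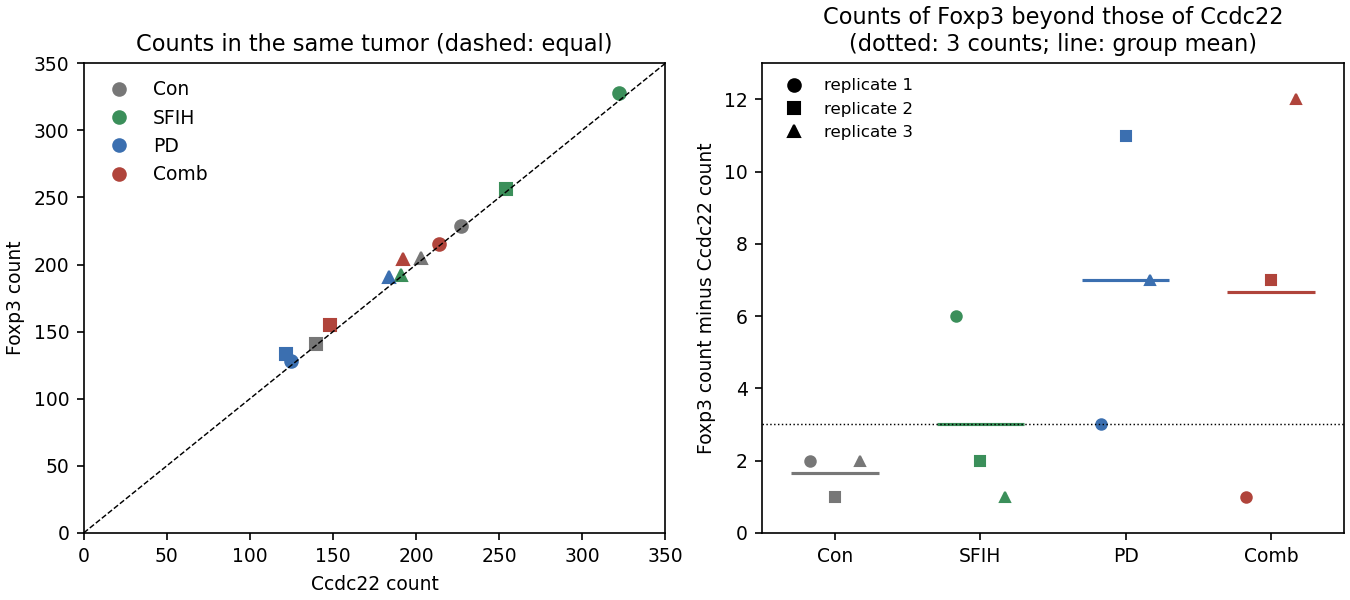
Left, the Foxp3 count against the Ccdc22 count of the same tumor, with a dashed line where they are equal. Right, the Foxp3 count minus the Ccdc22 count by group, with a dotted line at 3 counts and a line at each group mean: no tumor exceeds 12 counts.

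Ccr8 (chromosome 9, 120092114 to 120094906, plus strand) was at 0 in all 12 tumors. A count of 0 allows up to 3 counts, or 0.245 to 0.381 CPM, depending on the depth of the library. Such limits cover counting error only, since the reads carried no molecular identifiers in the files used. Ccr8 was not tested, since it did not pass the filter on low counts. The other 7 members passed it.

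Ikzf2 (chromosome 1, 69531214 to 69687245, minus strand) was at 9.22, 10.1 and 16.0 CPM (Con), 9.05, 7.26 and 10.1 CPM (SFIH), 14.6, 17.9 and 18.3 CPM (PD) and 7.43, 15.4 and 9.47 CPM (Comb). PD was the highest group, although Con replicate 3 lay above PD replicate 1. With anti-PD-1 the log2 fold change was 0.61 ± 0.24 (SE, adjusted p = 0.194, edgeR). Of log2(CPM + 1), the difference was 0.37 (exact permutation test, two-sided p = 0.105, labels permuted within the tumors with and without SFIH). On library sizes scaled by TMM, the trimmed mean normalization of edgeR, it was 0.54 and passed an unadjusted 0.05 (exact permutation p = 0.035). The group means of the SFIH tumors were below those of the matching tumors without SFIH, at 8.81 ± 1.45 against 11.8 ± 3.67 CPM without anti-PD-1 and at 10.8 ± 4.17 against 16.9 ± 2.02 CPM with it (SD, n = 3). That difference was −0.51 on the log2(CPM + 1) scale (exact permutation p = 0.04) and −0.43 after TMM scaling (exact permutation p = 0.06). Here labels were permuted within the tumors with and without anti-PD-1. The edgeR test gave the SFIH difference an adjusted p of 0.398.

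Il2ra (chromosome 2, 11642807 to 11693193, plus strand) was at 7.85, 4.37 and 4.49 CPM in Con, 4.81, 4.87 and 4.30 CPM in SFIH, and 8.82, 9.91 and 13.9 CPM in PD. In Comb it was at 6.34, 15.0 and 2.82 CPM, so that this group held both the highest and the lowest of the 12 values. All 3 PD tumors lay above all 3 Con tumors, a separation shown by 5.76% of genes in that direction. The lowest value belonged to Comb replicate 3, the tumor with the most Cd3. With anti-PD-1 the log2 fold change was 1.05 ± 0.35 (SE, adjusted p = 0.147, edgeR), and it was 1.23 ± 0.28 without Comb replicate 3 (adjusted p = 0.0711) and 0.62 without Comb replicate 2 (adjusted p = 0.243), the tumor with the highest value. On the log2(CPM + 1) scale the difference was 0.66 (exact permutation p = 0.07), and without Comb replicate 3 it was 0.91 (exact permutation p = 0.005). The smallest p this test can give is 0.005.

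Icos, Tnfrsf4 and Tnfrsf18 had the largest fold changes of the 7 members tested with anti-PD-1. Icos (chromosome 1, 60977927 to 61000320, plus strand) was at 6.30, 4.47 and 4.99 CPM (Con), 6.93, 4.29 and 5.12 CPM (SFIH), 11.3, 16.8 and 11.1 CPM (PD) and 7.13, 17.4 and 27.2 CPM (Comb). All 6 tumors given anti-PD-1 lay above the 6 others, though Comb replicate 1 exceeded SFIH replicate 1 only narrowly. The log2 fold change was 1.73 ± 0.35 with anti-PD-1 (SE, adjusted p = 0.0973, edgeR), 1.42 ± 0.49 between PD and Con (adjusted p = 1) and 2.07 ± 0.50 between Comb and Con (adjusted p = 0.0665). Of log2(CPM + 1), the difference with anti-PD-1 was 1.25 (exact permutation p = 0.005, the smallest possible).

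Tnfrsf4 (chromosome 4, 156013843 to 156016612, plus strand) rested on 18 to 229 counts per tumor. It was at 4.11, 1.87 and 3.39 CPM (Con), 4.32, 2.56 and 3.48 CPM (SFIH), 6.24, 12.8 and 6.69 CPM (PD) and 5.05, 8.03 and 20.9 CPM (Comb). As for Icos, the 6 tumors given anti-PD-1 lay above all 6 others. A separation of this kind was seen in 0.661% of the genes tested. Its log2 fold change was 1.83 ± 0.43 with anti-PD-1 (SE, adjusted p = 0.098, edgeR), 1.57 ± 0.61 between PD and Con and 2.23 ± 0.62 between Comb and Con (adjusted p = 0.0726). Of log2(CPM + 1), the difference with anti-PD-1 was 1.23 (exact permutation p = 0.005).

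Tnfrsf18 (chromosome 4, 156026164 to 156028895, plus strand) was at 7.12, 3.64 and 6.98 CPM (Con), 8.16, 4.70 and 3.79 CPM (SFIH), 7.21, 18.9 and 12.3 CPM (PD) and 8.82, 14.5 and 37.0 CPM (Comb). The only tumor given anti-PD-1 that did not lie above all 6 others was PD replicate 1. The log2 fold change was 1.75 ± 0.43 with anti-PD-1 (SE, adjusted p = 0.098, edgeR), 1.23 ± 0.61 between PD and Con and 2.15 ± 0.62 between Comb and Con (adjusted p = 0.0749). Between PD and Con it was 0.77 without PD replicate 2. The difference of log2(CPM + 1) was 1.23 (exact permutation p = 0.005). For each of the 3 genes, the 3 Comb tumors lay above the 3 Con tumors, which was true of 7.60% of genes.

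Comb replicate 3 gave the highest value of all 3 genes. Without it, the log2 fold changes with anti-PD-1 were 1.40 ± 0.28 for Icos, 1.34 ± 0.32 for Tnfrsf4 and 1.26 ± 0.32 for Tnfrsf18 (SE, edgeR, adjusted p = 0.0666, 0.0726 and 0.0797), and their fold changes between Comb and Con were 1.42, 1.25 and 1.17 on the log2 scale. Between Comb and PD, which differ by SFIH, the log2 fold changes were 0.65 ± 0.48, 0.66 ± 0.59 and 0.91 ± 0.59 with all tumors and 0.01 ± 0.41, −0.32 ± 0.47 and −0.06 ± 0.47 without Comb replicate 3. The muscle genes that set this tumor apart were at 12.2 CPM in PD replicate 2 and at 12.4 CPM in Comb replicate 2, below their range in Con (13.8 to 18.7 CPM), and these 2 tumors had the next highest values of Icos, Tnfrsf4 and Tnfrsf18. Other markers exceeded Con in them. In Comb replicate 2 adipocyte genes summed to 408 CPM (71.0 to 91.8 in Con) and B and plasma cell genes to 81.6 CPM (4.56 to 7.68 in Con). Lymph node stroma genes summed to 20.6 CPM there (0.208 to 0.499 in Con) and mast cell genes to 196 CPM. In PD replicate 2 erythroid genes summed to 1430 CPM (212 to 366 in Con). The ribosomal RNA gene Rn45s took 17.1% of the counts in PD replicate 2 and 14.1% in Comb replicate 2, against at most 10.3% in the other 10 tumors. Some of these markers also exceeded Con in tumors without anti-PD-1. Lymph node stroma genes were at 33.7 CPM in SFIH replicate 1, and erythroid genes at 800 and 938 CPM in SFIH replicates 2 and 3. The part of these tissues in the values of the 3 genes was not tested. SFIH alone left the 3 genes within 0.14 of Con on the log2 scale (−0.11 to 0.14, edgeR SE 0.49 to 0.61).

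**Figure D4:**
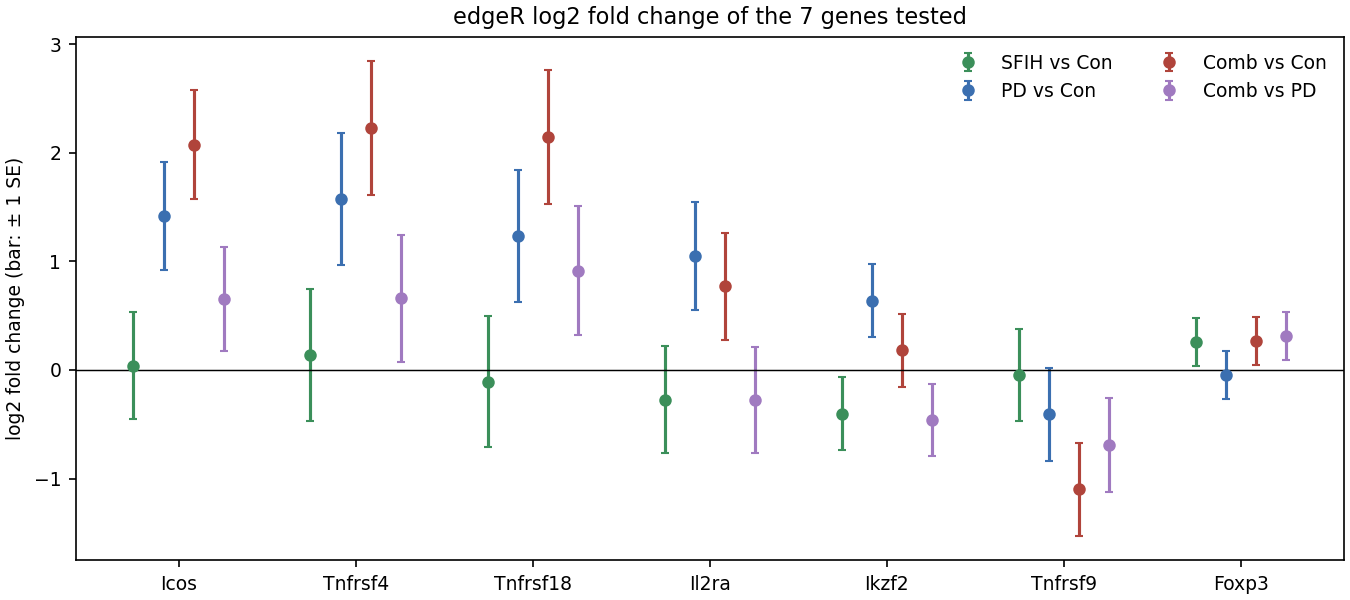
The edgeR log2 fold change of the 7 members tested in 4 comparisons, with bars of 1 SE on each side. Icos, Tnfrsf4 and Tnfrsf18 lie between 1.23 and 2.23 in PD and Comb against Con, Tnfrsf9 lies at −0.41 and −1.10, and SFIH against Con lies between −0.40 and 0.26 for all 7.

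Tnfrsf4 and Tnfrsf18 are neighbours, 9551 bases apart on the same strand, and their levels after TMM scaling followed each other over the 12 tumors (Pearson r = 0.97, and 0.95 after the group means were removed). Icos, on another chromosome, followed Tnfrsf4 as closely (r = 0.97). The correlations are descriptions, since the points share libraries and treatment groups. The stretches of 250 bases before the RefSeq start sites of the neighbours (GRCm38.p6, plus strand, chr4:156013445-156013694 and chr4:156026072-156026321) are shown because the levels of these members followed each other.
Tnfrsf4: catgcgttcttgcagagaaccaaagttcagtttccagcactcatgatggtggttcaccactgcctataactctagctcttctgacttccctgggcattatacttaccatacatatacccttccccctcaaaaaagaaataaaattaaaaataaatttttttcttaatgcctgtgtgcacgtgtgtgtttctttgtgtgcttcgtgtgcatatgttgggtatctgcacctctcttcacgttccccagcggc
Tnfrsf18: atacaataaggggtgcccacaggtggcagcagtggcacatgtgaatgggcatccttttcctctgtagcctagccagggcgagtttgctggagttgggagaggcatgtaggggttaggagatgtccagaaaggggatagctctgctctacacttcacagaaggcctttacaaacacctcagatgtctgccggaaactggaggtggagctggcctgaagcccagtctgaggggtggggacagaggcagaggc
The windows of 300 bases around these starts held no match to the AP-1 site TGANTCA, to the NF-kB consensus or to TATAAA, searched on both strands. Among 32851 RefSeq promoter windows of the same length, 7.81% held the AP-1 letters, 8.46% the NF-kB consensus and 13.6% TATAAA. Promoters were matched for 6 of the 8 members, all but Ikzf2 and Icos. Exons of Tnfrsf18 share 414 bases with the antisense gene Gm16008, and those of Ikzf2 share 144 with Gm29114. Without a stated strand setting, reads of these partners cannot be told apart from those of the members.

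Tnfrsf9 ran the other way. It lies on chromosome 4 at positions 150914562 to 150946102, plus strand, and was at 64.4, 72.3 and 52.7 CPM (Con), 68.5, 53.6 and 62.8 CPM (SFIH), 21.9, 75.2 and 34.0 CPM (PD) and 24.7, 35.1 and 14.8 CPM (Comb). All 3 Comb tumors lay below all 3 Con tumors, as did 22.2% of the genes tested. With anti-PD-1, 5 of the 6 tumors lay below all 6 others, while PD replicate 2 held the highest value of the 12. The log2 fold change with anti-PD-1 was −0.73 ± 0.30 (SE, adjusted p = 0.221, edgeR), and between −1.10 without PD replicate 2 and −0.56 without PD replicate 1 when a tumor was left out. It was −1.10 ± 0.43 between Comb and Con (adjusted p = 0.148, edgeR), −0.90 without Comb replicate 3, and −0.41 ± 0.43 between PD and Con. That last value rested on single tumors, and was −1.13 without PD replicate 2 and −0.0803 without PD replicate 1. The difference of log2(CPM + 1) with anti-PD-1 was −1.02 (exact permutation p = 0.02).

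RefSeq lists 2 start sites for Tnfrsf9, and counts of 3′ ends do not tell their transcripts apart. The 250 bases before the downstream start (GRCm38.p6, plus strand, chr4:150927749-150927998) are shown because, unlike the windows of Tnfrsf4, Tnfrsf18 and the upstream start of Tnfrsf9, they hold matches in capitals: to the NF-kB consensus at bases 208 and 209 of the window, which overlap and have their last base 33 bases before the start, and to TGANTCA at base 236, whose last base lies 9 bases before it.
Tnfrsf9: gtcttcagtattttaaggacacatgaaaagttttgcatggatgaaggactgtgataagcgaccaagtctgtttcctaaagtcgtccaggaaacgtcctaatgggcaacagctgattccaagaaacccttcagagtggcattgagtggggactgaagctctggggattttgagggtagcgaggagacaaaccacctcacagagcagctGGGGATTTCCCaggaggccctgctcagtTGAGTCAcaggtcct
Of the other 5 members with a window, Il2ra held the NF-kB consensus and none held the AP-1 letters. A match of letters is a description and not a site of binding.

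The members were also set against the T cell content of the same tumor, as the log2 ratio of a gene to the sum of Cd3d, Cd3e and Cd3g, with 0.5 added to both counts. Icos stood at −0.91, −1.48 and −1.80 (Con), −1.60, −1.54 and −1.18 (SFIH), −0.65, −1.35 and −1.06 (PD) and −1.22, −1.64 and −2.58 (Comb). The groups overlapped, and the difference with anti-PD-1 was 0.00 (exact permutation p = 1). For Tnfrsf18 it was −0.02 (exact permutation p = 0.93) and for Tnfrsf4 it was 0.07 (exact permutation p = 0.82). These averages join arms of opposite sign: the mean ratio differed between PD and Con by 0.38 for Icos, 0.15 for Tnfrsf18 and 0.52 for Tnfrsf4, and between Comb and Con by −0.42, −0.38 and −0.28, with overlapping groups in each case. The level of these 3 genes followed the Cd3 sum over the 12 tumors with r = 0.94, 0.95 and 0.93, and with 0.91, 0.90 and 0.86 without Comb replicate 3.

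Tnfrsf9 was the member whose ratio to Cd3 separated the tumors. It stood at 2.44, 2.52 and 1.59 (Con), 1.70, 2.09 and 2.42 (SFIH), 0.31, 0.81 and 0.56 (PD) and 0.57, −0.63 and −3.46 (Comb), on the same log2 scale. All 6 tumors given anti-PD-1 lay below all 6 others, PD replicate 2 included, and the difference was −2.43 (exact permutation p = 0.005) or −1.86 without Comb replicate 3 (exact permutation p = 0.005). Of all genes tested, 8.99% showed the same separation in that direction. The ratio of Ikzf2 differed by −0.99 (exact permutation p = 0.055) and that of Il2ra by −0.66 (exact permutation p = 0.555). For Il2ra it was 0.05 without Comb replicate 3, in which the ratio was −5.83. The Foxp3 row differed by −1.60 and the Ccdc22 row by −1.64 (exact permutation p = 0.01 for both).

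**Figure D5:**
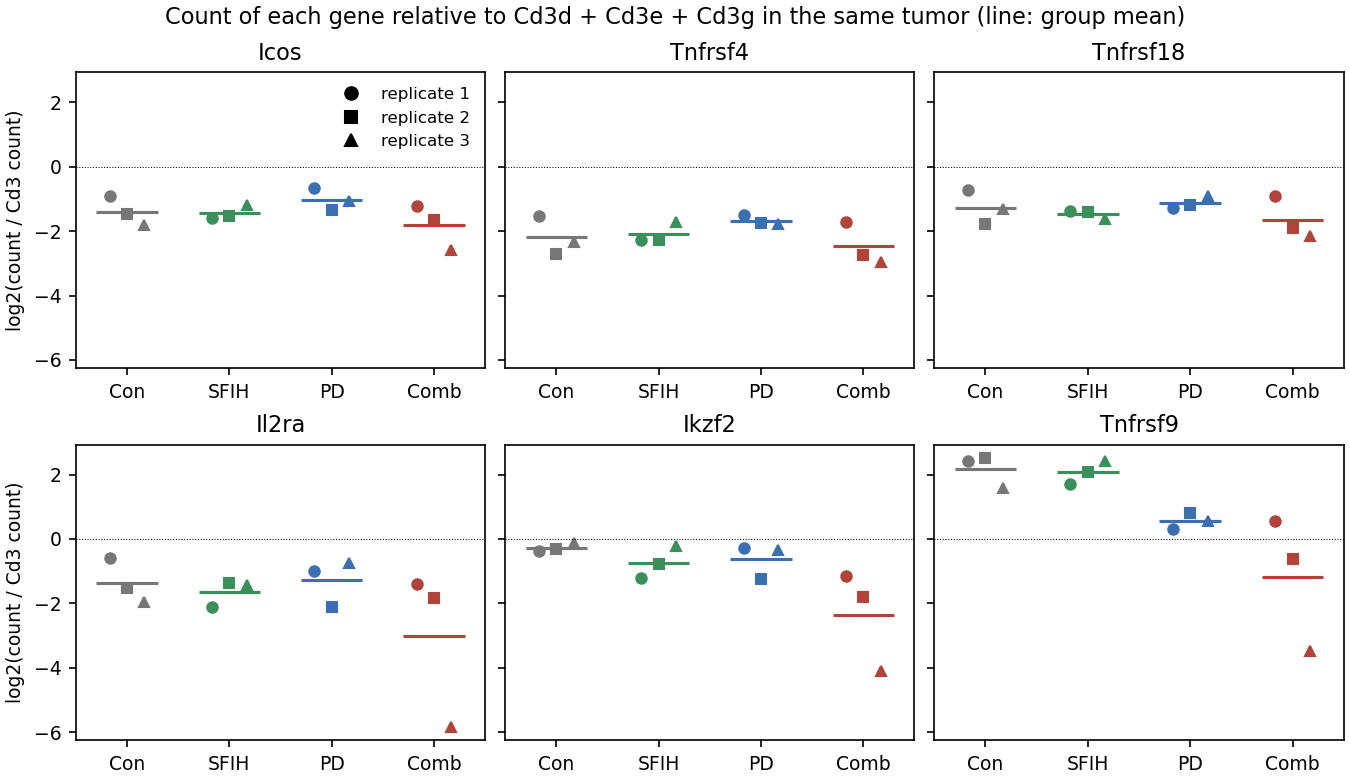
Log2 ratio of 6 members to the sum of Cd3d, Cd3e and Cd3g in the same tumor, on a common axis with a dotted line at 0 and a line at each group mean. Icos, Tnfrsf4 and Tnfrsf18 overlap between the tumors with and without anti-PD-1, whereas Tnfrsf9 lies at 1.59 or above in the 6 tumors without anti-PD-1 and at 0.81 or below in the 6 with it.

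The receptors were then set beside their ligands. Il2 (interleukin 2) had 0 counts in 10 tumors, 1 in PD replicate 3 and 11 in Comb replicate 3. Tnfsf4, the ligand of Tnfrsf4, had 0 to 2 counts, and Tnfsf18, the ligand of Tnfrsf18, had 0 to 11. These 3 ligands did not pass the filter of edgeR, and their log2(CPM + 1) differed with anti-PD-1 by 0.19 for Il2, −0.04 for Tnfsf4 and 0.31 for Tnfsf18 (exact permutation p = 0.5, 0.8 and 0.18). Tnfsf9, the ligand of Tnfrsf9, was at 1.35 to 2.19 CPM in Con and at 0 to 2.97 CPM in Comb, with a log2 fold change of −0.81 ± 0.75 with anti-PD-1 (SE, adjusted p = 0.602, edgeR). Icosl, the ligand of Icos, had a log2 fold change of 0.75 ± 0.30 with anti-PD-1 (SE, edgeR adjusted p = 0.213). It was at 3.43 to 6.49 CPM in PD, 3.86 to 9.93 CPM in Comb, 2.81 to 4.79 CPM in Con and 3.75 to 5.28 CPM in SFIH.

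Ccr8 had no counts, but genes of 2 chemokines that bind it did. Ccl1 was at 1.09 to 1.60 CPM in Con, 0.205 to 2.31 CPM in SFIH, 0.753 to 1.27 CPM in PD and 1.49, 2.95 and 18.7 CPM in Comb. Its log2 fold change was 1.37 ± 0.69 with anti-PD-1 and 1.65 ± 0.69 with SFIH (SE, edgeR adjusted p = 0.318 and 0.329), but −0.12 ± 0.99 between PD and Con and 0.17 ± 0.97 between SFIH and Con (adjusted p = 1 for both), so that the averages rest on Comb. Ccl8, which also binds other receptors, was at 75.3, 154 and 117 CPM (Con), 80.6, 107 and 237 CPM (SFIH), 131, 605 and 327 CPM (PD) and 316, 2211 and 20473 CPM (Comb). All 3 Comb tumors lay above Con and SFIH, and Comb replicate 3 was 9.26 times as high as Comb replicate 2. Ccl8 had a log2 fold change with anti-PD-1 of 3.97 ± 0.90 (SE, edgeR adjusted p = 0.0978).

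Of the genes that act with the members, some in each list were higher with anti-PD-1 at an unadjusted p below 0.05, as were 13.4% of all genes tested, and none passed the adjusted threshold of edgeR. In the CD28 family and its ligands, 7 of 8 genes tested were higher at an unadjusted p below 0.05 (edgeR) and 0 lower, with a median log2 fold change of 1.64 against −0.03 over all genes. Ctla4, an inhibitory receptor that regulatory T cells carry constitutively, was at 2.33 ± 0.49, the PD-1 ligand gene Pdcd1lg2 at 3.84 ± 1.01, Cd86 at 1.87 ± 0.50 and Cd28 at 1.91 ± 0.51 (SE, edgeR adjusted p = 0.0973 for Ctla4 and 0.098 for the others). Among other receptors of the TNF receptor family with their ligands and TRAF adaptors, 5 of 10 were higher and 0 lower (median 0.59). The receptor gene Cd27 was at 2.30 ± 0.55 and the ligand gene Tnfsf14 at 2.40 ± 0.63 (SE, edgeR adjusted p = 0.098 for both), with the receptor genes Cd40 at 0.76 ± 0.31 and Tnfrsf1b at 0.75 ± 0.31. For Tnfsf14 the average joins unlike arms, 0.84 ± 0.90 between PD and Con and 3.95 ± 0.92 between Comb and SFIH.

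Of 12 genes of interleukin 2 receptor signaling, 5 were higher at that unadjusted level, against 13.4% of all genes, and 0 lower (median 0.47). Il7r, the receptor of interleukin 7, was at 2.05 ± 0.51 (SE, adjusted p = 0.098, edgeR), the common γ chain gene Il2rg at 0.63 ± 0.18 (adjusted p = 0.105), and the feedback inhibitors Socs1 and Socs2 at 0.60 ± 0.23 and 1.14 ± 0.43 (adjusted p = 0.184 for both). Of 13 other regulatory T cell genes tested, 4 were higher and 0 lower (median 0.84): Ctla4, Entpd1 (CD39, which degrades extracellular ATP) at 1.76 ± 0.40, Ebi3 (a subunit of interleukin 35) at 0.98 ± 0.33 and Ikzf4 (Eos) at 1.38 ± 0.53. Of 11 partners of Foxp3 and regulators of helper T cells, 4 were higher and 0 lower (median 0.53): Irf4 at 2.89 ± 0.79, Satb1 at 1.88 ± 0.59, Nfatc1 at 0.53 ± 0.22 and Nfatc2 at 1.04 ± 0.46. Many of these genes are also expressed by other leukocytes. The average of Irf4 joins 0.88 ± 1.08 between PD and Con with 4.90 ± 1.18 between Comb and SFIH. That of Satb1 joins 1.06 ± 0.84 with 2.70 ± 0.85 (SE, edgeR).

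General T cell genes were higher as well. Of 14 T cell markers, 12 were higher with anti-PD-1 at an unadjusted p below 0.05, against 13.4% of all genes, and 0 lower (median log2 fold change 1.56, edgeR), and their summed level was 48.8 to 76.9 CPM in Con, 60.2 to 104 CPM in SFIH, 84.6 to 202 CPM in PD and 75.9 to 502 CPM in Comb. The log2 fold change with anti-PD-1 was 1.53 ± 0.53 for Cd3e, 2.29 ± 0.64 for Cd4, 1.32 ± 0.41 for Cd8a and 1.13 ± 0.32 for the pan-leukocyte gene Ptprc (SE, edgeR adjusted p = 0.156, 0.0994, 0.119 and 0.103). Cd4 had 4 to 23 counts per tumor in Con, which limits its precision. All 6 macrophage and leukocyte markers and all 9 skeletal muscle markers were also higher at that level (medians 1.32 and 4.59), as were 4 of 5 mast cell markers tested (3.35), 5 of 7 of dendritic cells, 3 of 8 of natural killer cells, 3 of 6 of colon carcinoma epithelium, 2 of 4 of B and plasma cells, 1 of 5 of adipocytes, 1 of 3 of skin and the 1 lymph node stroma marker tested. No erythroid marker reached that level (smallest unadjusted p = 0.115, Hba-a2, edgeR). In Comb the summed levels reached 970 CPM for adipocyte, 240 CPM for skin, 81.6 CPM for B and plasma cell and 66.8 CPM for lymph node stroma genes. The summed level of the dendritic cell genes went the other way, at 241 to 468 CPM in Comb and 475 to 546 CPM in Con, and Ccr7 and Fscn1 of that list had log2 fold changes of −0.10 and −0.33 with anti-PD-1. The part of these cells in the result of the members was not tested.

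The genes most like Foxp3 over the 12 tumors, by Pearson correlation of log2(CPM + 1) after TMM scaling among 12109 genes, were Ccdc22 (r = 0.99), Fam173b (0.91), Siglece (0.89), Vps33b (0.89) and Afmid (0.86), none of them in the T cell list used here, and r between Foxp3 and the Cd3 sum was 0.36, or −0.03 without Comb replicate 3. The genes most like the sum of the members were Il7r (0.97), Iqgap2 (0.96), Gimap5 (0.96), Entpd1 (0.96) and Irf8 (0.95). The genes most like Tnfrsf9, named after their values were seen, were Gzmd (0.90), Dyrk2 (0.89), Gzme (0.88), Mpp2 (0.87) and Ubac2 (0.86). Gzmd and Gzme encode granzymes, proteases of cytotoxic granules. Tnfrsf9 and the Cd3 sum had r = −0.43, and −0.04 without Comb replicate 3. These correlations carry no p, since the tumors share treatment groups and library composition.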

How the data were processed

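RNA from 12 MC38 tumors was read by QuantSeq 3′ mRNA-Seq in 3 tumors of each of 4 groups. The authors deposited raw read counts per gene symbol for all tumors in 1 table, and their aligner, genome build, annotation and strand setting are not given in the sources used here. Depth was 7870741 to 12261032 counts per tumor, of which Rn45s, a ribosomal RNA gene, took 4.28% to 17.1%. The table has 23282 rows, 19137 of them with a count.

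Counts were filtered with filterByExpr, scaled by TMM (factors 0.76 to 1.12) and fitted over all 12 tumors with the quasi-likelihood test of edgeR 4.0.16 in R 4.3.3. Benjamini-Hochberg adjustment covered all 13464 genes tested, at a threshold of 0.05, in 8 comparisons. The main effects compare 6 with 6 tumors. The SE of an edgeR log2 fold change was derived as its size divided by the square root of the F statistic of the test. The script was tested on simulated data with known fold changes. That simulation had less spread between tumors than these data and no outlying library, so it cannot show how calls depend on single tumors. Levels are CPM on library totals, tested as log2(CPM + 1) by two-sided exact permutation (400 divisions, smallest p 0.005). Labels were permuted within the SFIH strata for anti-PD-1, and within the anti-PD-1 strata for SFIH. A test of 3 against 3 tumors has 20 divisions and cannot go below 0.1, so none is given. Ratios to Cd3d, Cd3e and Cd3g added 0.5 to both counts. Alternatives were DESeq2 1.42.0, no TMM, other filters, pseudocounts and denominators, the groups compared alone, a replicate block and each tumor left out.

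Named genes are the members, their ligands, Cd3e, Cd4, Cd8a, Ptprc, up to 4 genes of each other pathway list with the smallest p with anti-PD-1, and the 5 genes most correlated with Foxp3 and with the sum of the members at a mean count of at least 20. Other genes named were chosen after their values were seen. The members and lists were chosen with earlier results of these data known. Positions are from GENCODE M21 (GRCm38) and promoters from RefSeq (GRCm38.p6), and describe that annotation, since the build behind the counts is not known.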

Additional observations from a re-analysis of the deposited data

How the results depend on the processing

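With 3 tumors a group, 1 library could decide a call. DESeq2 called 3 members between Comb and Con, 3 between Comb and SFIH and 4 with anti-PD-1, where edgeR called 0. DESeq2 without Comb replicate 3, an alternative chosen after seeing the data, called 1 (Icos) between Comb and Con (3.93% of all genes) and 4 with anti-PD-1 (5.10%). It no longer called any member between Comb and SFIH. With each tumor left out in turn, edgeR called 0 to 3 members between Comb and Con, 0 to 3 between Comb and SFIH and 0 to 4 with anti-PD-1, the calls coming without Comb replicate 1 (18.4%, 15.5% and 11.9% of all genes), and 0 in the other comparisons. Alternative log2 fold changes of single members were tallied with anti-PD-1, between PD and Con and between Comb and Con, for Foxp3 with anti-PD-1 only. Since no member passed in the main fit, the 346 that stayed the same kept their direction and did not pass. Of the rest, 19 passed and 8 changed direction. Changes of direction in the other comparisons, such as Comb against PD, are not in this tally. The cause of these differences was not tested.

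The log2 fold change of Foxp3 with anti-PD-1 was −0.21 without TMM, 0.0185 with a mean count of at least 50 and −0.0881 to 0.0476 with a tumor left out. Between Comb and Con, that of Ikzf2 was −0.12 without TMM and −0.17 to 0.46 with a tumor left out, and that of Il2ra was −0.0877 to 1.14. Without TMM the median of all genes with anti-PD-1 was −0.21, against −0.03 with it. For log2(CPM + 1) with anti-PD-1, TMM scaling gave 0.81 for Il2ra (exact permutation p = 0.02) and 0.54 for Ikzf2 (exact permutation p = 0.035), and leaving out a tumor gave 0.39 to 0.91 and 0.24 to 0.48. The Foxp3 count minus the Ccdc22 count, also chosen after seeing the data, gave 0.48 (exact permutation p = 0.035), but 7 of the 12 differences were at or below the 3 counts that a count of 0 allows, so nothing is read from it.

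For the ratio to Cd3 with anti-PD-1, Cd4 in place of Cd3 gave −1.43 for Ikzf2 (exact permutation p = 0.045), −0.38 for Tnfrsf4 and −0.45 for Icos, Cd3e alone gave 0.25 for Tnfrsf18, and a pseudocount of 1 gave −0.0019 for Icos. Leaving out a tumor gave −2.06 to −1.19 for Foxp3, −1.06 to 0.0467 for Il2ra, −1.29 to −0.55 for Ikzf2, −0.20 to 0.12 for Tnfrsf18, −0.12 to 0.24 for Tnfrsf4 and −0.15 to 0.19 for Icos. With the replicate number as a block (the replicate block), edgeR called 0 members in all 8 comparisons, and the log2 fold change of Icos with anti-PD-1 was 1.67 (adjusted p = 0.152). Deviations of same-numbered tumors correlated by −0.19 to 0.35 over 18 pairs, so the numbers are not taken to pair the tumors. Depth limits the low genes: the lowest tumor held 4 counts of Cd4, 10 of Cd3e, 18 of Tnfrsf4 and 31 of Il2ra.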
